A study of Mus musculus with 10 samples.

Results

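The data described here are the RNA levels of 10 receptor tyrosine kinase genes in mouse lung tumours: Egfr, Erbb2, Erbb3, Met, Fgfr1, Fgfr2, Pdgfra, Pdgfrb, Igf1r and Axl. The list is defined by gene name, with no threshold on a measured value. All 10 were found among the 32285 genes of the single-cell matrix and the 55341 genes of the bulk files. KP cells, a mouse lung adenocarcinoma line, were given by vein to mice of a matched strain, and tumour-bearing mice were then treated for 11 days. Bulk RNA came from sorted Epcam+ cells of tumour nodules, with 3 libraries for SHP099 and 3 for vehicle. Single-cell RNA came from live-enriched cells of nodules of 12 mice, 3 for each of vehicle, SHP099, SX682 and SHP099 with SX682 (the combination). All groups, vehicle included, carried KP tumours.

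SHP099 is an inhibitor of SHP2, a phosphatase (gene Ptpn11). SX682 blocks CXCR1 and CXCR2, the chemokine receptors that draw neutrophils into tissue. A receptor tyrosine kinase binds its ligand outside the cell, pairs with a second receptor and phosphorylates tyrosines on its own tail. Adaptors dock there, and SHP2 helps to pass the signal through MEK to ERK. ERK in turn induces genes that damp the pathway, and blocking it is known to change receptor levels in some tumour cells. In the lung, FGFR2 and EGFR serve epithelial growth and repair, the PDGF receptors mark fibroblasts and mural cells, and AXL is a receptor of macrophages that clear dying cells.

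The mice of a treatment were pooled in 1 capture, so treatment and capture cannot be told apart in any single-cell comparison. RNA was captured with a V(D)J kit and counted in unique molecular identifiers (UMIs), and levels are given as UMIs of the gene scaled to a total of 1000000 UMIs (CPM). The 44986 cells fell into 33 clusters of the authors, which carry no names. They were named here from marker genes, so each name means "like that type", and 5 clusters stayed unnamed. Tumour cells (4093 cells in clusters 21 and 23) had 6 epithelial markers (Epcam, keratins and Cldn4) that summed to 5922 to 11295 CPM. Of the barcodes, 1009 occurred in more than 1 capture and 0 in 2 mice of 1 capture. Bulk libraries held 51939301 to 73361005 counts, and a mouse gave 2289 to 6399 cells with 7391763 to 34819434 UMIs.

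RefSeq promoters (GRCm38.p6, from 250 bases before to 50 after a start site) were matched for 7 of the 10 genes. Those of 4 receptors with different cell patterns are shown: Met (tumour and lung epithelial cells), Fgfr2 (lung epithelium), Pdgfra (fibroblasts) and Axl (macrophages). They lie at chr6:17463707-17464006 (plus), chr7:130266759-130267058 (minus), chr5:75152001-75152300 (plus) and chr7:25788684-25788983 (minus). Capitals mark matches, on either strand and with no overlap between motifs, to the GC box GGGCGG, the AP-1 motif TGANTCA or the ETS motif CCGGAAG.
Met: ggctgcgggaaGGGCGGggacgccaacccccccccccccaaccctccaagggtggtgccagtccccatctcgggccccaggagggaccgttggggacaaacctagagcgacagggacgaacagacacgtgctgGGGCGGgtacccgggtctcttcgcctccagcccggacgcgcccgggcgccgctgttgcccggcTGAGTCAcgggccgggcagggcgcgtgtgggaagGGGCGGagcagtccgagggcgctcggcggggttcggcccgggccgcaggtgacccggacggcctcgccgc
Fgfr2: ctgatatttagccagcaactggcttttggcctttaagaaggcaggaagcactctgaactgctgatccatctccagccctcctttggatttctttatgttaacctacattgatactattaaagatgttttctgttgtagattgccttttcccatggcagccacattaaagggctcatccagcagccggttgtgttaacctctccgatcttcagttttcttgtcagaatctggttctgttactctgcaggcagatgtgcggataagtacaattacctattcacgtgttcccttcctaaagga
Pdgfra: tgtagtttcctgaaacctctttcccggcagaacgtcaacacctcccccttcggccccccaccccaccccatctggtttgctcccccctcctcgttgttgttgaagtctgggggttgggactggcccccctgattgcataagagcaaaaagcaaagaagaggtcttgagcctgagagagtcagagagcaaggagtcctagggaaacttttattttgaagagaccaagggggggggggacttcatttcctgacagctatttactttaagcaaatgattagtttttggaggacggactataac
Axl: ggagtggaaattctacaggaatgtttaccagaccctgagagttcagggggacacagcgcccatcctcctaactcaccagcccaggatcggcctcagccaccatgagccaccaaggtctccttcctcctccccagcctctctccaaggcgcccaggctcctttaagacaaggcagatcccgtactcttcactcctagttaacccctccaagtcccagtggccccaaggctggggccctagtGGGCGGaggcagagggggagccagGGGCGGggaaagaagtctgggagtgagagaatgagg
Met held 3 GC boxes and 1 AP-1 match and had 75.7% G and C, against a median of 52.7% over 32851 promoters. Axl held 2 GC boxes, and Fgfr2 and Pdgfra held none of the 3 motifs. Of all promoters, 35.66% held a GC box, 7.81% an AP-1 match and 8.86% an ETS match. A match is a stretch of letters, and no binding was measured.

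In the genome (GRCm38, the build mm10 of the files), the receptor genes lie apart except for a few shared chromosomes. Egfr is at chr11:16752203-16918158 and Erbb2 at chr11:98412470-98437716, both on the plus strand. Erbb3 is at chr10:128567523-128589652 on the minus strand, and Met at chr6:17463800-17573980 on the plus strand. Fgfr1 is at chr8:25513654-25575718 on the plus strand, and Fgfr2 at chr7:130162451-133123350 on the minus strand, a span that includes a long model reaching into Ctbp2. Pdgfra is at chr5:75152292-75198215 and Pdgfrb at chr18:61045150-61085061, both on the plus strand. Igf1r is at chr7:67952827-68233668 on the plus strand, and Axl at chr7:25757273-25788705 on the minus strand. Their merged exons sum to between 5033 bases for Axl and 16791 bases for Igf1r. Bulk reads were counted without strand, so reads of overlapping genes cannot be told apart. Overlaps covered 6.504% of the exon bases of Pdgfra, 3.04% of Fgfr2 (shared with Ctbp2), 1.66% of Fgfr1 and 0.173% of Erbb2, and none of the other 6.

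The receptors divided by cell class, and each gene was compared only with itself across classes. Erbb2, Erbb3 and Met were tumour and lung epithelial receptors, and Fgfr2 a lung epithelial receptor. Pdgfra, Pdgfrb and Egfr were fibroblast receptors, and Axl a macrophage receptor. Among the named classes Igf1r was highest in neutrophils and endothelial cells, followed by lung epithelial cells, fibroblasts and tumour cells at like levels. The levels below are means over mice with at least 10 cells of the class, without a test. They pool treatments unequally, since no SHP099 mouse had 10 fibroblasts and only 8 of 12 mice had 10 lung epithelial cells. In vehicle mice alone, Erbb3 was at 88.4 ± 37.9 CPM (SD, n = 2) in lung epithelial cells, from 20 UMIs, and 37.6 ± 11.3 CPM (SD, n = 3) in tumour cells.

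**Figure D1:**
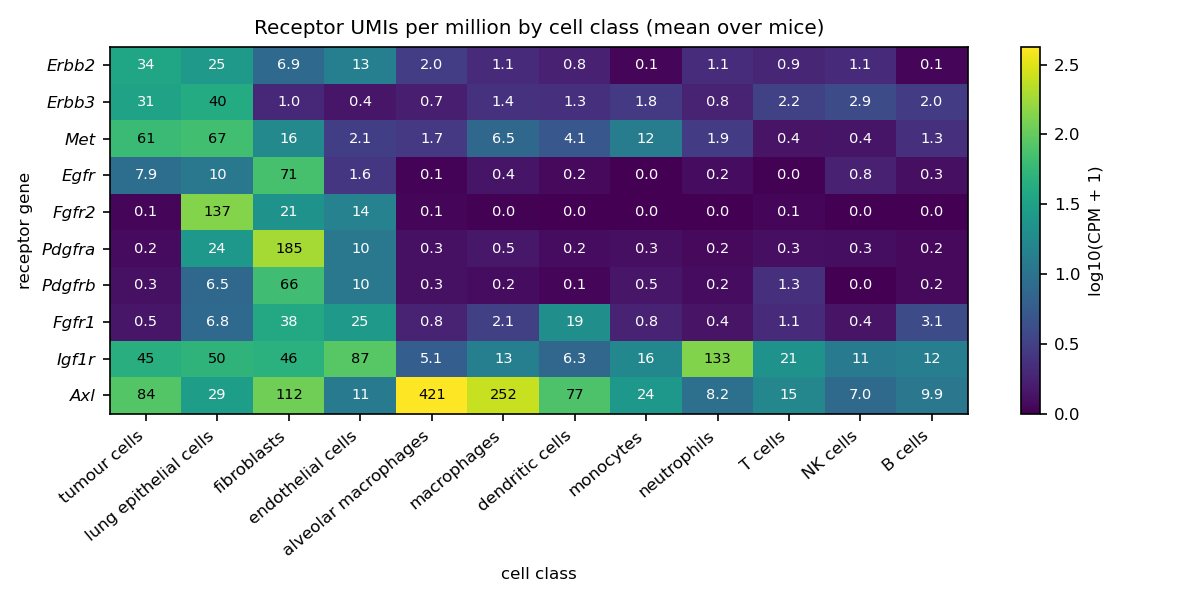
Level of each receptor gene (rows) in each named cell class (columns). Numbers are CPM, mean over mice, and colour is log10(CPM + 1). Axl is highest in alveolar macrophages (421 CPM), Pdgfra in fibroblasts (185 CPM), Fgfr2 in lung epithelial cells (137 CPM) and Igf1r in neutrophils (133 CPM).

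Erbb2, the ERBB partner that has no ligand of its own, was at 33.9 ± 6.47 CPM (SD, n = 12 mice) in tumour cells and 24.8 ± 13.7 CPM (SD, n = 8) in lung epithelial cells, values that do not differ beyond their spread. Endothelial cells held 12.5 ± 8.55 CPM (SD, n = 11) and fibroblasts 6.90 ± 6.73 CPM (SD, n = 8). Tumour cells were 9.10% of cells and supplied 88.8% of all Erbb2 UMIs. Erbb3, the neuregulin receptor with a weak kinase that signals through its partner, was at 31.5 ± 9.81 CPM (SD, n = 12) in tumour cells and 40.3 ± 35.5 CPM (SD, n = 8) in lung epithelial cells. No other named class averaged over 2.94 CPM of Erbb3, the level in NK cells, and tumour cells supplied 87.8% of its UMIs.

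Met, the receptor of hepatocyte growth factor, was at 61.3 ± 7.04 CPM (SD, n = 12) in tumour cells and 67.1 ± 21.1 CPM (SD, n = 8) in lung epithelial cells. It followed at 16.3 ± 11.3 CPM (SD, n = 8) in fibroblasts, 11.6 ± 5.63 CPM (SD, n = 12) in monocytes and 6.51 ± 2.94 CPM (SD, n = 12) in macrophages, neighbours whose ranges overlap. Egfr, the receptor of the EGF family ligands, was at 71.5 ± 19.3 CPM (SD, n = 8) in fibroblasts, where the lowest mouse had 41.3 CPM. Its highest tumour cell value was 14.6 CPM, with a mean of 7.89 ± 3.19 CPM (SD, n = 12), so the classes did not overlap. Lung epithelial cells had 10.2 ± 7.29 CPM (SD, n = 8), from 14 UMIs in all. Fibroblasts were 0.842% of cells and gave 38.0% of Egfr UMIs, while the tumour cells gave 54.3%.

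Fgfr2, the receptor through which lung epithelium answers FGF ligands, was at 137 ± 55.9 CPM (SD, n = 8) in lung epithelial cells. It was at 21.2 ± 9.64 CPM (SD, n = 8) in fibroblasts and 13.6 ± 15.7 CPM (SD, n = 11) in endothelial cells, which overlap. Tumour cells held 7 Fgfr2 UMIs in all, with 0 in 8 of 12 mice and a mean of 0.103 CPM. Fgfr1, the form of mesenchyme and endothelium, was at 37.6 ± 11.5 CPM (SD, n = 8) in fibroblasts, 24.8 ± 13.5 CPM (SD, n = 11) in endothelial cells and 19.5 ± 9.87 CPM (SD, n = 12) in dendritic cells, which overlap in their ranges. Among dendritic clusters it was at 29.5 ± 18.7 CPM (SD, n = 12) in cluster 19, marked by type 2 dendritic genes, at 20.04 ± 11.7 CPM (SD, n = 12) in cluster 18, marked by type 1 dendritic genes, and at 4.08 ± 4.403 CPM (SD, n = 12) in cluster 17, marked by mature dendritic genes. Tumour cells had 0.450 ± 0.474 CPM (SD, n = 12).

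Pdgfra, which marks fibroblasts of the alveolar wall, was at 185 ± 133 CPM (SD, n = 8) in fibroblasts and 24.3 ± 29.1 CPM (SD, n = 8) in lung epithelial cells. Pdgfrb, the form of mural cells and fibroblasts, was at 65.5 ± 45.3 CPM (SD, n = 8) in fibroblasts and 10.3 ± 12.3 CPM (SD, n = 11) in endothelial cells. The fibroblast cluster also carried mural markers, with 5 of 6 at least 2-fold above the other clusters, and the fibroblasts and mural cells were not separated. In tumour cells Pdgfra was at 0.206 CPM and Pdgfrb at 0.305 CPM.

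Igf1r, the receptor of insulin-like growth factors, was at 133 ± 20.8 CPM (SD, n = 12) in neutrophils, from 108 to 169 CPM. Endothelial cells had 86.9 ± 29.1 CPM (SD, n = 11), overlapping neutrophils, then came lung epithelial cells with 50.1, fibroblasts with 46.4 and tumour cells with 44.8 ± 5.97 CPM (SD, n = 12). Tumour cells supplied 38.9% of Igf1r UMIs and neutrophils 28.5%. Within the 6 neutrophil states of the authors' own neutrophil table, Igf1r was at 227 ± 79.8 CPM (SD, n = 12) in state 6 and between 111 and 146 CPM in the other 5, with ranges that overlap. Within the 9 T cell states it was at 118 ± 61.5 CPM (SD, n = 12) in state 8 of the authors' T cell table, from 31.7 to 218 CPM. The other 8 states had means between 3.01 and 25.1 CPM, and cluster 9, 1 of the T cell clusters, had 88.2 ± 35.9 CPM (SD, n = 12).

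Axl, the receptor of GAS6 on cells that clear dying cells, was at 421 ± 47.8 CPM (SD, n = 12) in alveolar macrophages and 252 ± 24.7 CPM (SD, n = 12) in other macrophages. The lowest alveolar value, 342 CPM, was above the highest of the other macrophages, 307 CPM. Fibroblasts had 112 ± 25.8 CPM (SD, n = 8), tumour cells 83.6 ± 12.9 CPM (SD, n = 12) and dendritic cells 76.6 ± 14.8 CPM (SD, n = 12), neighbours that overlap. Macrophages supplied 35.8% of Axl UMIs, alveolar macrophages 23.7% and tumour cells 19.2%. The unnamed clusters 14 and 16, which carry some macrophage markers, had 358 ± 43.9 CPM (SD, n = 12) and 148 ± 72.4 CPM (SD, n = 9).

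Ligands of these receptors, a list of 25, were set beside them in vehicle mice. Only named classes with at least 10 cells in all 3 vehicle mice were ranked, which leaves out lung epithelial cells and the unnamed clusters. Tumour cells had the highest levels of the EGF family ligands Areg (596 ± 20.6 CPM, SD, n = 3), Hbegf (378 ± 17.5 CPM, SD, n = 3), Btc (205 ± 24.98 CPM, SD, n = 3) and Tgfa (37.7 ± 5.66 CPM, SD, n = 3), while Egfr itself was highest in fibroblasts. Ereg, another ligand of that family, was at 61.0 ± 43.2 CPM (SD, n = 3) in fibroblasts and 31.8 ± 3.01 CPM (SD, n = 3) in tumour cells. Nrg1, the ligand of Erbb3, was at 22.3 ± 7.13 CPM (SD, n = 3) in monocytes and 7.64 ± 1.25 CPM (SD, n = 3) in tumour cells. Hgf, the ligand of Met, was at 20.6 ± 10.4 CPM (SD, n = 3) in endothelial cells, from 17 UMIs, and 10.9 ± 2.69 CPM (SD, n = 3) in macrophages. Gas6 was at 166 ± 57.8 CPM (SD, n = 3) in fibroblasts, and the second Axl family ligand Pros1 at 154 ± 19.7 CPM (SD, n = 3) in endothelial cells and 125 ± 23.3 CPM (SD, n = 3) in fibroblasts. Igf1 was at 145 ± 38.3 CPM (SD, n = 3) in alveolar macrophages, 133 ± 28.3 CPM (SD, n = 3) in macrophages and 112 CPM in fibroblasts. Pdgfa was at 92.6 ± 7.34 CPM (SD, n = 3) in tumour cells, and Pdgfb at 215 ± 19.8 CPM (SD, n = 3) in endothelial cells.

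For each receptor the 3 genes with the most similar levels over the 33 clusters were taken, by Pearson's r of log2(CPM + 1) among 11510 genes. The r is a description over clusters of the same captures. Egfr was most like Col4a5 (r = 0.929), Il33 and Gli3, and Erbb2 most like Tmprss2 (r = 0.922), Ttll7 and Epb41l4b. Erbb3 was most like Elmo3 (r = 0.854), Fam83g and Tom1l1, and Met most like Baiap2l1 (r = 0.865), Nupr1 and Snx7. Fgfr1 was most like Ppp1r14a (r = 0.816), Pdia5 and Adgra2, and Fgfr2 most like Col4a4 (r = 0.973), Ephb3 and Klf15. Pdgfra was most like Adamts15 (r = 0.977), Mfap4 and Tcf21, and Pdgfrb most like Dpt (r = 0.972), Rarres2 and Tcf21, so Tcf21 was near both. Igf1r was most like Jmy (r = 0.855), Antxr2 and Rnf11, and Axl most like Mrc1 (r = 0.869), the mannose receptor of macrophages, Sh3pxd2b and Slc35f6.

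Within tumour cells, the 2 clusters of the authors held different receptors. Erbb3 was at 59.8 to 97.1 CPM (median 77.2) over 12 mice in cluster 21 and at 5.19 to 15.2 CPM (median 9.95) in cluster 23, a 7.37-fold ratio of means. No mouse overlapped the other cluster's range. Erbb2 was at 46.9 to 99.96 CPM (median 61.7) in cluster 21 and 15.6 to 29.01 CPM (median 18.5) in cluster 23, a 3.17-fold ratio. Axl ran the other way, at 20.8 to 60.9 CPM (median 49.3) in cluster 21 and 84.5 to 129 CPM (median 95.5) in cluster 23, a 2.10-fold ratio. Erbb2 and Erbb3 were higher in cluster 21 in 12 of 12 mice, and Axl was higher in cluster 23 in 12 of 12 mice, under every treatment.

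The other 3 receptors of tumour cells differed less between the clusters. Igf1r was higher in cluster 21 in 11 of 12 mice (55.5 ± 14.5 against 39.7 ± 5.16 CPM, SD, n = 12), Met was higher in cluster 23 in 10 of 12 mice (63.3 ± 8.84 against 55.0 ± 8.14 CPM, SD, n = 12), and Egfr was higher in cluster 21 in 9 of 12 mice (10.9 ± 7.06 against 6.56 ± 2.47 CPM, SD, n = 12). Cells of cluster 21 were shallower, with median UMIs per cell of 5722 to 12706 by mouse against 9400 to 20018 in cluster 23. The clusters were made from these same cells, so the differences are a description with no test.

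**Figure D2:**
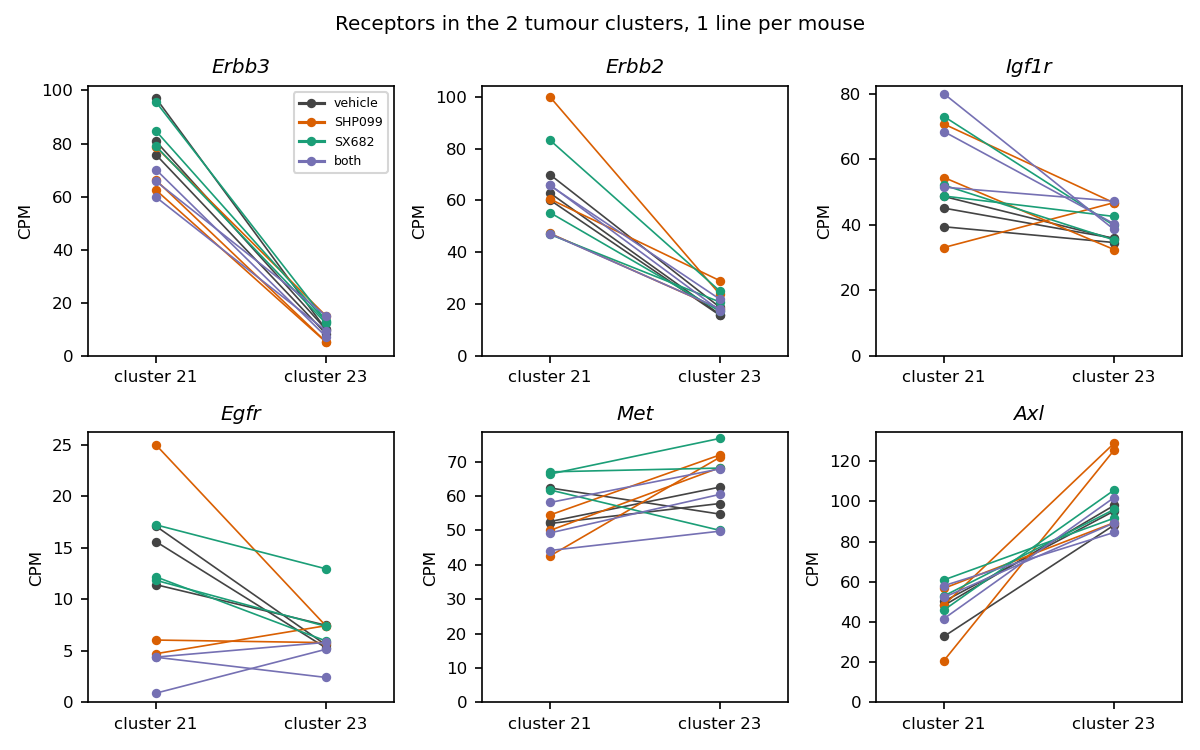
CPM of 6 receptors in tumour cluster 21 (left) and tumour cluster 23 (right), 1 line per mouse coloured by treatment. Erbb3 and Erbb2 fall and Axl rises from cluster 21 to cluster 23 in all 12 mice.

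The share of tumour cells in cluster 21 was 55.0 ± 9.58% (SD, n = 3) in vehicle mice, 30.4 ± 8.16% (SD, n = 3) with SHP099, 52.4 ± 9.25% (SD, n = 3) with SX682 and 48.7 ± 11.3% (SD, n = 3) with the combination. The 3 SHP099 mice (39.7, 25 and 26.3%) lay below the 3 vehicle mice (53.1, 46.5 and 65.3%). The part of these shares in the tumour cell results below was not tested, and for some of those results each cluster is given alone.

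The first comparison asked which receptors changed in sorted Epcam+ cells after SHP099. None of the 10 receptors passed edgeR's quasi-likelihood test with Benjamini-Hochberg adjustment at 0.05, as 23 of 20314 genes did (0.113%), and 3 had an unadjusted p under 0.05. Here and below, counts at an unadjusted p are given without the share of all genes at that threshold. The same holds for DESeq2 counts printed without a number of genes. Such counts have no background here, and no result about the receptors is drawn from them. The shares printed beside them are for edgeR's adjusted p. By level per length in vehicle libraries, the order was Axl (94.2 ± 9.78 RPKM, SD, n = 3), Erbb2 (34.3 ± 2.20), Met (26.1 ± 1.78), Erbb3 (17.8 ± 3.78), Pdgfrb (5.99 ± 1.63), Egfr (4.72 ± 0.361), Igf1r (4.23 ± 0.567), Pdgfra (3.39 ± 1.58), Fgfr1 (1.86 ± 0.239) and Fgfr2 (1.59 ± 0.146). Pdgfrb, Egfr, Igf1r and Pdgfra do not differ beyond their spread, nor do Fgfr1 and Fgfr2. RPKM here is reads per 1000 bases of merged exon, scaled to 1000000 counts with TMM factors.

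Fgfr1 had 15.7, 20.1 and 19.4 CPM in the 3 vehicle libraries and 7.62, 7.67 and 6.01 CPM in the 3 SHP099 libraries. Every SHP099 library was below every vehicle library. The log2 difference was -1.37 ± 0.18 (SE), with an adjusted p of 0.0614 (edgeR). Egfr had 49.0, 54.4 and 57.1 CPM with vehicle and 25.2, 37.0 and 28.6 CPM with SHP099, again without overlap, a log2 difference of -0.82 ± 0.16 (SE) with an adjusted p of 0.147 (edgeR).

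Fgfr2 had 18, 14.98 and 16.4 CPM with vehicle and 10.2, 7.95 and 3.07 CPM with SHP099. The third SHP099 library was lowest, and the log2 difference was -1.22 ± 0.39 (SE) with an adjusted p of 0.395 (edgeR). Groups that do not overlap were found for these 3 of 10 receptors and for 14.9% of all genes tested. Whether fewer cells of a type or less RNA per cell lowered a level cannot be told apart in sorted bulk RNA.

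The 3 receptors of highest level per length had groups that overlapped. Axl had 456, 437 and 530.0 CPM with vehicle and 384, 414 and 602 CPM with SHP099, a log2 difference of -0.02, and the third SHP099 library stood above all others. Erbb2 had 166, 186 and 185 CPM with vehicle and 180.0, 206 and 180 CPM with SHP099, a log2 difference of 0.08. Met had 188, 200 and 215 CPM with vehicle and 193, 216 and 262 CPM with SHP099, a log2 difference of 0.15.

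Erbb3 had 82.1, 127 and 113 CPM with vehicle and 79.5, 113 and 68.9 CPM with SHP099, a log2 difference of -0.30. Igf1r differed by -0.17, Pdgfra by -0.55 and Pdgfrb by -0.36, and for all 7 of these receptors the groups overlapped and the adjusted p (edgeR) lay between 0.728 and 0.981. The median log2 difference of the 10 receptors was -0.33, against -0.00 over all genes.

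**Figure D3:**
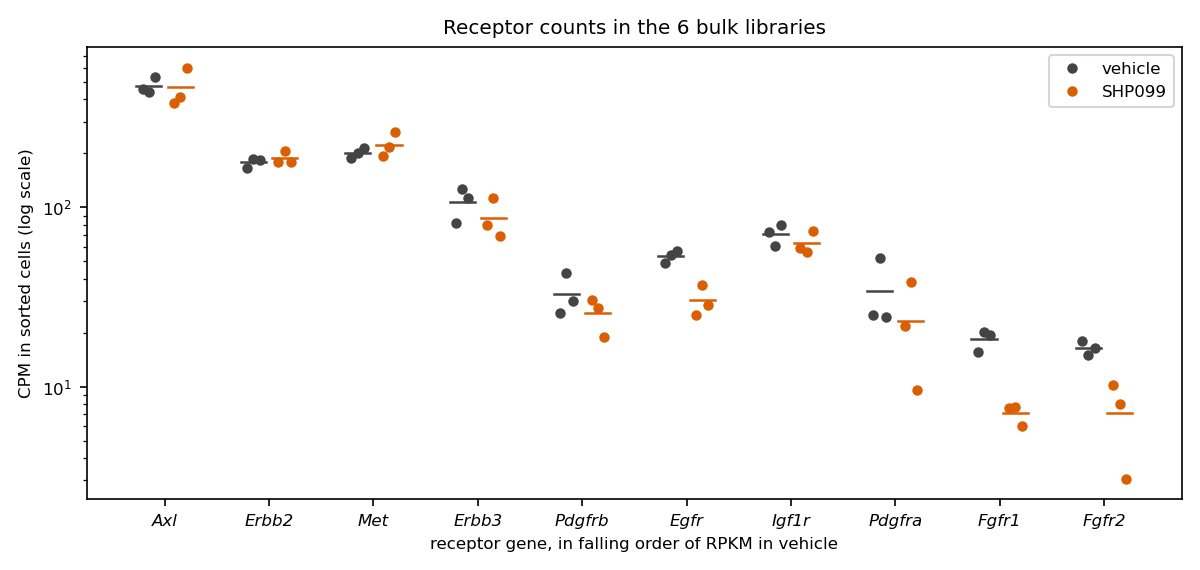
CPM (log axis) of the 10 receptors in the 6 bulk libraries of sorted cells, 1 point per library with the group mean as a line, in falling order of level per length. Egfr, Fgfr1 and Fgfr2 lie lower in all 3 SHP099 libraries than in all 3 vehicle libraries, and the other 7 overlap.

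The sorted cells also held RNA of other cells, and that of some types differed between the groups. The 8 alveolar type 2 markers summed to 3346 to 7293 CPM with vehicle and 423 to 734 CPM with SHP099, with 8 of 8 lower without overlap. The 6 fibroblast markers summed to 1538 to 2810 CPM with vehicle and 524 to 940.5 CPM with SHP099, with 5 of 6 lower without overlap. The 6 macrophage markers summed to 569 to 594 CPM with vehicle and 251 to 386 CPM with SHP099, with 3 of 6 lower without overlap. Other lists overlapped. Endothelial markers summed to 1097 to 1918 CPM with vehicle and 651 to 2559 CPM with SHP099. The monocyte list summed to 828 to 1161 CPM and 693 to 1171 CPM. Fgfr1, Fgfr2, Pdgfra and Pdgfrb, at 0.103 to 0.450 CPM in single tumour cells, were at 16.5 to 34.0 CPM in the vehicle bulk libraries. The units differ, UMIs against reads that grow in number with transcript length, so the levels are not directly comparable. The receptors of tumour cells were higher in bulk too, Egfr at 53.5 against 7.89 CPM, Erbb2 at 179 against 33.9 and Axl at 474 against 83.6. So were Erbb3 (107 against 31.5), Met (201 against 61.3) and Igf1r (71.1 against 44.8). The part of other cells in the lower Egfr, Fgfr1 and Fgfr2 was not tested.

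DESeq2 called Egfr and Fgfr1 lower (adjusted p of 0.00436 and 3.31e-08) among 569 genes, and edgeR without a filter on low counts called the same pair (0.0325 and 0.00538) among 283 genes. With one of the 6 libraries left out, edgeR called 0 to 16 genes and 0 receptors.

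In tumour cells of the single-cell data, SHP099 was compared with vehicle over sums of UMIs per mouse. Of the 10 receptors 6 passed the filter on low counts, and Fgfr1, Fgfr2, Pdgfra and Pdgfrb did not. Axl was higher with SHP099 and passed the test, 1 of 6 receptors as against 13.5% of the 10993 genes tested. The mice here are numbered by hashtag, and values are TMM-scaled CPM.

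Axl was at 82.2, 84.0 and 64.0 CPM in vehicle mice and 110.2, 113 and 86.2 CPM in SHP099 mice. All SHP099 mice were above all vehicle mice, and the log2 difference was 0.43 ± 0.13 (SE) with an adjusted p of 0.0364 (edgeR). Met was at 60.8, 56.8 and 59.9 CPM with vehicle and 69.4, 67.7 and 68.2 CPM with SHP099, also without overlap, with a log2 difference of 0.21 ± 0.12 (SE) and an adjusted p of 0.289 (edgeR). Axl and Met are 2 of 6 receptors whose groups did not overlap, as did those of 33.5% of all genes.

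Erbb3 was at 31.8, 31.7 and 52.1 CPM with vehicle and 33.8, 14.3 and 17.1 CPM with SHP099. The first SHP099 mouse lay among the vehicle mice, and the log2 difference was -0.85 ± 0.28 (SE) with an adjusted p of 0.0612 (edgeR). Over 20 alternatives the Erbb3 difference lay between -1.30 and -0.199, and 3 of them called it. With 1 mouse left out it lay between -1.30 and -0.57. Erbb2 differed by -0.06 ± 0.23 (SE), Egfr by -0.24 ± 0.31 (SE) and Igf1r by 0.23 ± 0.13 (SE), all with overlap.

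The Axl call did not hold within either tumour cluster. In cluster 21 alone the log2 difference was -0.06, and in cluster 23 alone it was 0.30 with an adjusted p of 0.129 (edgeR). It missed the threshold too without the first or the third vehicle mouse, without the first or the second SHP099 mouse, with no filter on low counts, with the 2 groups fitted alone, and in tumour cells with at most 2 UMIs of marker genes of other cells (adjusted p between 0.0503 and 0.425, edgeR). The 6 macrophage markers in the tumour cell sums were lower with SHP099, at 418 to 474 CPM with vehicle and 41.9 to 64.9 CPM with SHP099. The part of RNA from other cells in the Axl difference was not tested.

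None of the 6 receptors passed edgeR's test for SX682 against vehicle in tumour cells (0.364% of genes called). The log2 differences lay between -0.11 for Erbb3 and 0.15 for Igf1r. At an unadjusted p under 0.05, and with DESeq2, the count was also 0.

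With the combination Egfr was lower than with vehicle in tumour cells, 1 of 6 receptors called as against 10.3% of genes. Egfr was at 9.04, 8.50 and 11.3 CPM with vehicle and 3.04, 4.09 and 5.23 CPM with the combination. The groups did not overlap, and the log2 difference was -1.22 ± 0.29 (SE) with an adjusted p of 0.0188 (edgeR). SX682 mice were at 7.19, 8.73 and 14.4 CPM and SHP099 mice at 6.07, 10.4 and 7.18 CPM, so the combination was lowest of the 4 treatments. Against SX682 the log2 difference was -1.19 ± 0.31 (SE) with an adjusted p of 0.0528, and against SHP099 it was -0.97 with an adjusted p of 0.199 (edgeR).

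The lower Egfr was seen in cluster 21, where the log2 difference from vehicle was -2.19 with an adjusted p of 0.00615 (edgeR). In cluster 23 it was -0.50 with an adjusted p of 0.427 (edgeR), and the difference between the clusters was not tested. The call in all tumour cells was lost without the third vehicle mouse or the first or second combination mouse. It rests on few molecules, since all tumour cells of the series held 459 Egfr UMIs.

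Igf1r was at 40.01, 40.2 and 37.9 CPM with vehicle and 47.5, 47.5 and 58.0 CPM with the combination, without overlap. The log2 difference was 0.37 ± 0.12 (SE) with an adjusted p of 0.0610 (edgeR). Egfr and Igf1r were 2 of 6 receptors without overlap, as were 34.7% of genes. Axl (0.01), Erbb2 (-0.06), Met (-0.10) and Erbb3 (-0.37) did not pass the test and overlapped.

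None of the 6 receptors passed the test for the combination against SHP099 (1.57% of genes called), for the combination against SX682 (3.75%) or for the interaction of SHP099 and SX682 (0.373%). The interaction is the SHP099 effect with SX682 minus that without it, and its log2 values lay between -0.94 and 0.59. At an unadjusted p under 0.05, again without the share of all genes, the counts were 3 (Axl, Egfr and Met), 1 (Egfr) and 2 (Axl and Met). DESeq2 called 0, 1 and 0.

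**Figure D4:**
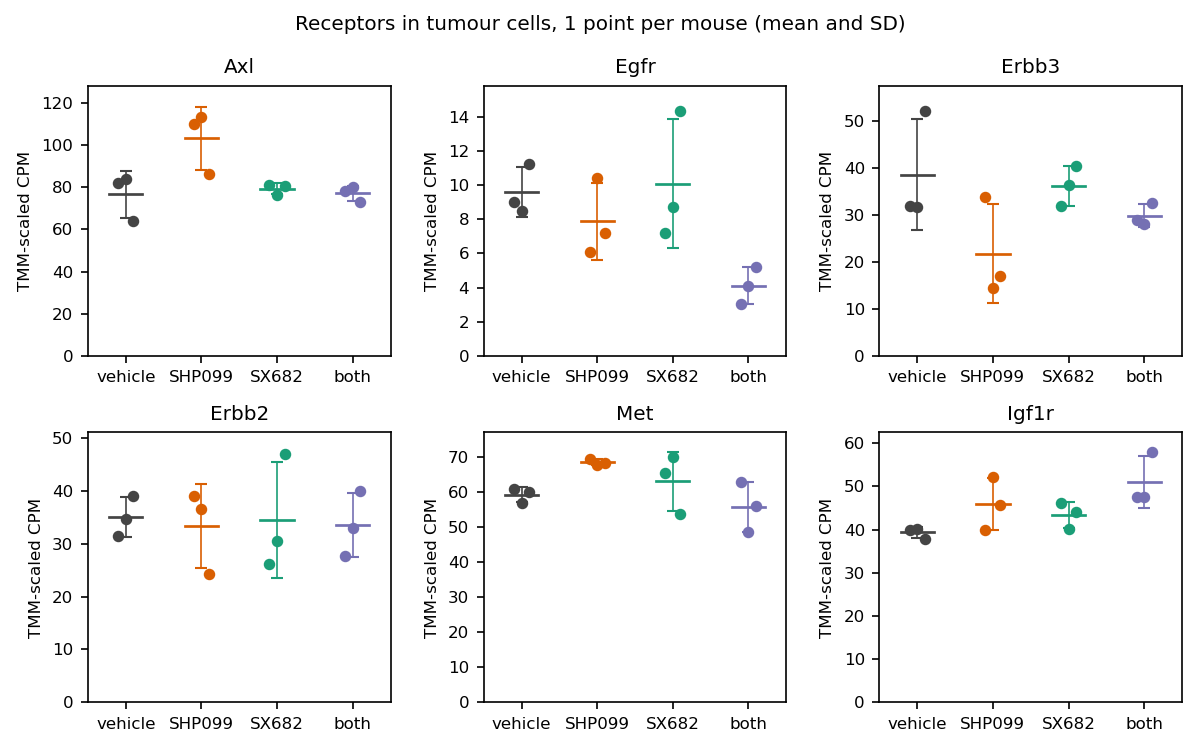
TMM-scaled CPM of 6 receptors in the tumour cells of each mouse, by treatment ("both" is the combination), with group mean and SD. Axl is higher in the 3 SHP099 mice than in the 3 vehicle mice, and Egfr is lower in the 3 combination mice than in the 3 vehicle mice.

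Ligands of these receptors were tested in the same tumour cells. Of 25 listed ligands 12 were tested against vehicle with SHP099, and 3 rose and 1 fell, 4 of 12 as against 13.5% of all genes called. Btc, a ligand of EGFR, fell by 1.28 ± 0.15 (SE) on the log2 scale with an adjusted p of 0.000138. Nrg1, the ligand of ERBB3, rose by 1.19 ± 0.32 (SE, adjusted p of 0.0256), the Axl family ligand Pros1 by 1.31 ± 0.34 (SE, adjusted p of 0.0229) and Pdgfb by 0.79 ± 0.14 (SE, adjusted p of 0.00242). With the combination 5 of the 12 were called, as against 10.3% of all genes: Nrg1 (1.05), Pros1 (1.23) and Pdgfb (0.42) rose and Btc (-0.97) and Areg (-0.84) fell. All these adjusted p-values are edgeR's, and the 2 comparisons share their vehicle mice.

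Among the other listed genes in tumour cells with SHP099, 1 of 22 adaptors and signal carriers rose and 3 fell, as against 13.5% of all genes called in either direction. The one that rose was Irs1, the docking protein of IGF1R, which rose by 1.12 ± 0.28 (SE). Map2k1 (-0.81) and Map2k2 (-0.55), which encode MEK, were among those that fell. Of 18 ERK target and feedback genes, Dusp6 (-0.53) and Spred2 (-0.54), both brakes on ERK signalling, fell and Epha4 (1.17) rose. Of 7 other receptor tyrosine kinases Flt1 (-0.46) fell, and 0 of 10 receptor brakes were called. The median log2 difference was -0.11 for the adaptors, -0.13 for the ERK genes and 0.03 for the brakes, against 0.01 over all genes.

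With the combination, 1 of 22 adaptors (Irs1, 0.89) rose and 3 fell, Map2k1 (-0.72) and Map2k2 (-0.49) among them, as against 10.3% of all genes called. Etv4 (-0.66), an ERK target, was the call among 18 ERK genes, Flt1 (-0.42) among 7 other receptors, and 0 of 10 brakes were called. Of the ERK genes, Dusp4 (-0.68) was called lower with the combination than with SX682, a comparison in which 3.75% of all genes were called. In the bulk libraries 0 of the 19 tested receptor tyrosine kinases, 20 ligands, 23 adaptors, 11 brakes and 19 ERK genes passed edgeR's test.

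In macrophages Axl was higher with SHP099, 1 of the 4 receptors tested there as against 10.3% of genes. It was at 215, 237 and 240 CPM in vehicle mice and 309, 310 and 265 CPM in SHP099 mice, without overlap (28.3% of genes). The log2 difference was 0.36 ± 0.09 (SE) with an adjusted p of 0.0195 (edgeR). It missed the threshold without the first or second vehicle mouse and without the first or second SHP099 mouse. With the groups fitted alone it missed it too (adjusted p up to 0.0985 over these fits, edgeR). With cluster 16 counted among macrophages the log2 difference was 0.76 (adjusted p of 0.000172, edgeR). Cluster 16 held 454, 180 and 332 cells in vehicle mice and 13, 17 and 2 in SHP099 mice. In vehicle mice its Axl was at 98.3 CPM, against 233 CPM in macrophages (without TMM scaling). The part of this change in cell numbers in the 0.76 was not tested.

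SX682 mice had 219, 241 and 244 CPM of Axl in macrophages and combination mice 257, 270 and 241 CPM. The combination differed from vehicle by 0.15 ± 0.09 (SE) with an adjusted p of 0.380 (edgeR). With cluster 16 counted in, the difference was 0.55 and passed (adjusted p of 0.00273, edgeR). Cluster 16 held 7, 35 and 7 cells in combination mice, and its part in the 0.55 was not tested. In macrophages without cluster 16, summed macrophage markers were at 19066.5 to 22941 CPM with vehicle. They were lower with SHP099, at 11415 to 15789 CPM, and with the combination, at 11031 to 14484 CPM. Alveolar macrophage markers in the same cells were at 846 to 937 CPM with vehicle and 1108 to 2155 CPM with SHP099. Their part in the Axl difference was not tested.

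Other receptors of macrophages did not pass the test with SHP099 or the combination. Igf1r was at 15.4, 15.1 and 15.95 CPM with vehicle and 10.1, 11.2 and 7.48 CPM with SHP099, without overlap, with a log2 difference of -0.67 ± 0.23 (SE) and an adjusted p of 0.0727 (edgeR). Met differed by -1.07 ± 0.39 (SE) with the combination (adjusted p of 0.144, edgeR). For the combination 0 of 4 were called (5.39% of genes), and for SX682 0 of 4 (0.582%), with 1 at an unadjusted p under 0.05 in each, Met and Igf1r. Against SHP099 the combination gave 0 of 4 (0.0873% of genes), against SX682 0 (6.45%) and the interaction 0 (0.223%), with 1 (Axl), 0 and 1 (Igf1r) at an unadjusted p under 0.05.

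In alveolar macrophages Axl pointed the other way and did not pass the test (0 of 1 receptor, 8.75% of genes with SHP099 and 7.95% with the combination). It was at 490, 459 and 473 CPM with vehicle, 406, 403 and 362 CPM with SHP099 and 425, 394 and 355 CPM with the combination. Both treated groups lay below vehicle without overlap (24.9 and 24.8% of genes), with log2 differences of -0.27 ± 0.10 and -0.27 ± 0.09 (SE) and adjusted p-values of 0.0821 and 0.0789 (edgeR). SX682 mice had 462, 441 and 460.4 CPM, a log2 difference of -0.06 (0.885% of genes called). Axl also did not pass for the combination against SHP099 (0.195% of genes) or SX682 (8.97%) or for the interaction (0.586%), and the second of these had an unadjusted p under 0.05. Whether the Axl differences of the 2 macrophage classes differ was not tested.

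Some listed genes were called in both macrophage classes with SHP099, where 10.3% of all genes in macrophages and 8.75% in alveolar macrophages were called. Mertk, a sister receptor of Axl, rose by 0.91 ± 0.16 (SE) in macrophages and 0.56 ± 0.15 (SE) in alveolar macrophages with SHP099. Pros1, an Axl family ligand, rose by 0.67 and 0.70, and Igf1, the ligand of Igf1r, by 1.31 and 1.04. Gas6, the ligand of Axl itself, was at 14.3 ± 2.34 CPM (SD, n = 3) in vehicle macrophages and was not called. In macrophages 2 of 11 ligands rose and 1, Btc, fell by 4.83, and of 6 other receptor tyrosine kinases 1 rose and 1, Flt1, fell by 1.23. Btc was at 205 CPM in vehicle tumour cells and 7.31 CPM in vehicle macrophages. The 6 tumour cell markers in the macrophage sums were at 241 to 254 CPM with vehicle and 27.9 to 56.9 CPM with SHP099, and their part in the Btc difference was not tested. Of 11 ERK target genes in macrophages, Dusp6 (-0.84), Etv5 (-3.15) and Ier3 (-0.68) fell. From the adaptor list only Grb2 is named here, without the counts of the other adaptors tested or called. With SHP099 Grb2 rose in macrophages (0.63), monocytes (0.85, 5.94% of genes called), dendritic cells (0.56, 13.1%), neutrophils (0.51, 13.1%) and T cells (0.51, 14.5%). Each of these calls passed edgeR's test, the largest adjusted p being 0.0406 for Pros1 in macrophages.

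In neutrophils 0 of 2 receptors passed the test with SHP099 (13.1% of genes), SX682 (0.508%) or the combination (6.45%), with 1, 0 and 0 at an unadjusted p under 0.05. Igf1r was at 130, 114 and 120 CPM with vehicle and 151, 126 and 161 CPM with SHP099, overlapping, with a log2 difference of 0.25 ± 0.15 (SE) and an adjusted p of 0.313 (edgeR). SX682 mice had 169, 120 and 154 CPM and combination mice 116, 119 and 136 CPM. Neither receptor passed for the combination against SHP099 (1.18% of genes) or SX682 (3.72%) or for the interaction (1.77%), where Igf1r had an unadjusted p under 0.05. Axl in neutrophils was at 10.4, 11.4 and 12.3 CPM with vehicle and 1.27, 4.64 and 4.24 CPM with SHP099, without overlap (29.5% of genes), a log2 difference of -1.71 ± 0.59 (SE) with an adjusted p of 0.0625 (edgeR). The alveolar macrophage markers in those neutrophil sums were at 1434 to 1557 CPM with vehicle and 228 to 526 CPM with SHP099, and their part was not tested.

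In T cells Axl was lower with SHP099, 1 of 2 receptors as against 14.5% of genes. It was at 21.2, 25.4 and 24.9 CPM with vehicle and 10.6, 10.2 and 12.95 CPM with SHP099, without overlap (32.8% of genes), with a log2 difference of -1.06 ± 0.30 (SE) and an adjusted p of 0.0248 (edgeR). The 6 macrophage markers in the T cell sums were at 344 to 883 CPM with vehicle and 77.4 to 133 CPM with SHP099. Alveolar macrophage markers were at 98.1 to 206 CPM and 35.1 to 45.0 CPM. The part of RNA from other cells was not tested. The call missed the threshold in DESeq2 (adjusted p of 0.0847) and without any one of the 3 vehicle mice or the first or second SHP099 mouse.

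Igf1r in T cells was at 16.3, 29.7 and 15.3 CPM with vehicle and 28.6, 30.7 and 29.1 CPM with SHP099, with a log2 difference of 0.55 ± 0.33 (SE) and an adjusted p of 0.281 (edgeR). For SX682 (0.216% of genes) and the combination (3.11%) 0 of the 2 receptors passed in T cells, with Axl at an unadjusted p under 0.05 in both (log2 differences of -0.77 and -0.83). For the combination against SHP099 (0.874% of genes), against SX682 (2.68%) and for the interaction (0.863%) 0 of 2 passed, with 1 (Igf1r), 0 and 1 (Axl) at an unadjusted p under 0.05.

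In dendritic cells 0 of 3 receptors passed with SHP099 (13.1% of genes), SX682 (0.508%) or the combination (5.37%), with 0, 0 and 1 at an unadjusted p under 0.05. Igf1r there was at 3.13 to 3.68 CPM with vehicle and 6.07 to 13.2 CPM with the combination and differed by 1.38 ± 0.50 (SE) with the combination (adjusted p of 0.126, edgeR), higher in 3 of 3 mice without overlap (25.5% of genes). Against SHP099 (0.0354% of genes), against SX682 (3.77%) and for the interaction (0.0827%) 0 of 3 passed, none with an unadjusted p under 0.05. Endothelial cells and monocytes had 1 tested receptor each, Igf1r and Axl. In endothelial cells Igf1r differed from vehicle by 0.16 with SHP099 (2.97% of genes called), 0.23 with SX682 (1.9%) and -0.36 with the combination (3.16%) on the log2 scale. It did not pass there or for the combination against SHP099 (0.0214%) or SX682 (0.47%) or for the interaction (0.449%). In monocytes Axl differed from vehicle by 0.68 with SHP099 (5.94% of genes called), 0.28 with SX682 (0.397%) and 0.56 with the combination (5.56%). It did not pass there or for the combination against SHP099 (0.355%) or SX682 (2.72%) or for the interaction (0.0418%). None of these 12 tests had an unadjusted p under 0.05.

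In fibroblasts Pdgfra was higher with the combination than with SX682. No SHP099 mouse had 10 fibroblasts, and 1 SX682 mouse had 7, so a fit of vehicle, SX682 and combination mice was added after the data were seen. Pdgfra was at 228, 209 and 440 CPM in combination mice, 92.5 and 60.1 CPM in the 2 SX682 mice and 169, 156 and 135 CPM in vehicle mice. The combination and SX682 groups did not overlap (37.6% of genes), and the log2 difference was 1.88 ± 0.33 (SE) with an adjusted p of 0.00878 (edgeR). It was 1 of 8 receptors called in that comparison, as against 8.04% of genes.

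Without the second SX682 mouse the Pdgfra difference was 1.57 with an adjusted p of 0.0803 (edgeR), a fit in which 1 SX682 mouse remains and is assumed to vary like the other groups. Against vehicle Pdgfra differed by 0.86 ± 0.29 (SE) with the combination and -1.02 ± 0.30 (SE) with SX682, neither of which passed (adjusted p of 0.123 and 0.178, edgeR), and 0 of 8 receptors were called (3.43 and 0.655% of genes), with 1 and 4 at an unadjusted p under 0.05. Egfr, Pdgfrb, Fgfr1, Fgfr2, Axl, Igf1r and Met did not pass in any of the 3 comparisons. Fibroblasts of combination mice were 20 to 38 cells a mouse with median UMIs of 2788 to 3955.5, while the 2 SX682 mice had 54 and 46 cells with 11729 and 18700.0. The mural markers summed to 889 to 2140 CPM with the combination and 797 to 1575 CPM with SX682, and the mesothelial markers to 132 to 820 and 514 to 700 CPM, and their part was not tested.

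In the sums of all cells of a mouse, Erbb3, Egfr, Erbb2, Met and Fgfr1 were lower with SHP099. The same mice had lower shares of tumour cells, dendritic cells and fibroblasts. Tumour cells were 18.3 ± 3.44% of cells (SD, n = 3) in vehicle mice, 2.42 ± 0.337% with SHP099, 6.59 ± 3.23% with SX682 and 7.40 ± 0.929% with the combination. Dendritic cells were 8.05 ± 2.30% of cells (SD, n = 3) in vehicle mice and 3.32 ± 0.950% with SHP099. Fibroblasts were 1.25 ± 0.222% and 0.174 ± 0.011%. Tumour cells gave 3.47% of Fgfr1 UMIs, dendritic cells 35.4% and fibroblasts 16.7%, and fibroblasts gave 38.0% of Egfr UMIs. The part of each cell type was not tested. A change in the sums of all cells mixes the number of cells and the level per cell, which cannot be told apart. With SHP099 5 of 10 receptors were called lower, a share near the 47.0% of genes called in either direction.

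Erbb3 was at 15.2, 12.8 and 22.9 CPM with vehicle and 4.84, 3.83 and 4.17 CPM with SHP099, a log2 difference of -1.98. Egfr was at 5.61, 5.42 and 6.78 CPM and 1.36, 2.22 and 2.22 CPM, a log2 difference of -1.63. Erbb2 differed by -1.43, Met by -1.13 and Fgfr1 by -0.95 (adjusted p of 0.0494, edgeR). For these 5 and Pdgfra the SHP099 mice lay below the vehicle mice without overlap, and for Igf1r above, 7 of 10 receptors as against 61.2% of genes. The Fgfr1 call was lost in 8 of 12 fits that left out 1 mouse.

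SX682 mice had 9.90, 6.24 and 7.05 CPM of Erbb2 and vehicle mice 14.7, 14.1 and 17.2 CPM, a log2 difference of -0.98 with an adjusted p of 0.0389 (edgeR), 1 of 10 receptors called and 4.03% of genes. It was lost in 9 of 12 fits that left out 1 mouse. With the combination Egfr (-1.42), Fgfr1 (-1.09), Erbb3 (-0.90) and Met (-0.71) were lower than with vehicle, 4 of 10 receptors and 24.7% of genes, of which Egfr kept its call in all 12 fits without 1 mouse and Fgfr1, Erbb3 and Met lost it in 7, 3 and 9. Against SX682 Egfr was lower by 1.16 on the log2 scale, with an adjusted p of 0.0477 (edgeR), 1 of 10 receptors and 9.43% of genes, a call lost in 11 of 12 such fits. Against SHP099 alone 0 of 10 passed (0.864% of genes), with Erbb2 and Erbb3 at an unadjusted p under 0.05 and called by DESeq2. The interaction of SHP099 and SX682 was called for Erbb2 and Erbb3, 2 of 10 receptors and 17.6% of genes.

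Of the 10 receptors, 3 had a positive log2 difference with SHP099 in the sums of all cells, Igf1r, Axl and Fgfr2, and none of them passed the test. Fgfr2 was at 1.5, 1.44 and 1.21 CPM with vehicle and 4.45, 0.3 and 0.28 CPM with SHP099. Its first SHP099 mouse lay above the vehicle mice and the others below. Igf1r was at 31.1, 28.7 and 25.4 CPM with vehicle and 39.3, 41.1 and 39.2 CPM with SHP099, without overlap, with a log2 difference of 0.49 and an adjusted p of 0.0531 (edgeR). Axl was at 104, 124 and 108 CPM with vehicle and 136, 148 and 118 CPM with SHP099, a log2 difference of 0.26 with an adjusted p of 0.0808 (edgeR). Neutrophils, which hold Igf1r, were 13.03 ± 3.11% of cells (SD, n = 3) in vehicle mice and 30.8 ± 4.69% (SD, n = 3) with SHP099. Their part in the Igf1r difference was not tested.

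**Figure D5:**
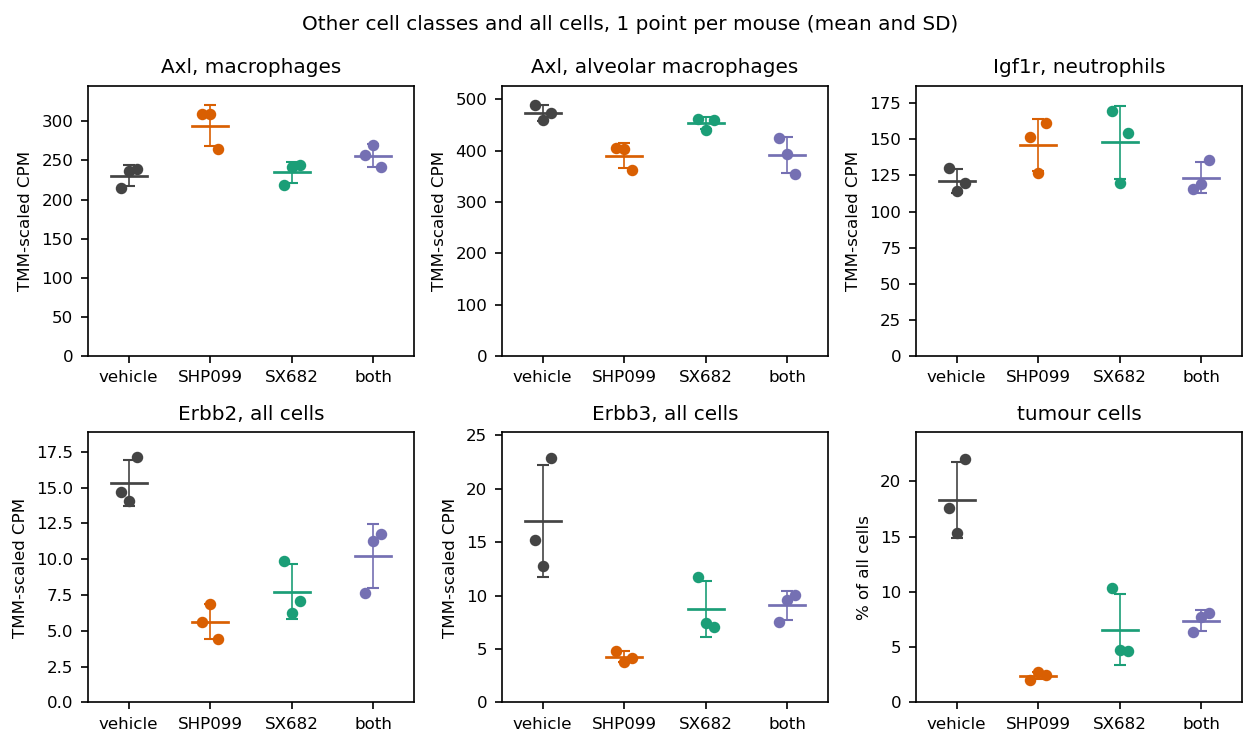
TMM-scaled CPM of Axl in macrophages and in alveolar macrophages, Igf1r in neutrophils, and Erbb2 and Erbb3 in the sum of all cells, and tumour cells as a percent of all cells, 1 point per mouse with group mean and SD ("both" is the combination). Erbb2 and Erbb3 in all cells and the tumour cell share are highest in the 3 vehicle mice and lowest in the 3 SHP099 mice by their means.

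Labels do not say that the bulk replicates came from separate mice, so p-values measure the spread between these samples. The single-cell replicates are mice told apart by hashtag, and 3 against 3 of them cannot give an exact permutation p below 0.1, so fits across all genes were used.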

How the data were processed

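The authors deposited gene counts for 6 bulk libraries and a matrix of UMI counts with a table of cells, clusters and mice for 4 captures. Per the submitters' processing notes the tools included STAR, HTSeq, Picard, Cell Ranger, bcl2fastq, bedtools, DESeq2 and R 3.3.0 with the build mm10. Settings of these tools: not given in the sources used here. Bulk counts per gene were used as deposited, and UMI counts were summed per mouse and class with at least 10 cells. Tests used edgeR 4.0.16 in R 4.3.3 (TMM, filterByExpr, quasi-likelihood, two-sided), with Benjamini-Hochberg adjustment over all genes tested and a threshold of 0.05. The 4 treatments of a class shared 1 fit. Alternatives were DESeq2 1.42.0, no filter, a replicate block, at least 30 cells, groups fitted alone, other choices of cells and each replicate left out. The fibroblast fit, cluster 16 and single tumour clusters were chosen after seeing the data. Scripts were tested on simulated data. Members, gene lists and tests were chosen with earlier results of these data known. Genes named are the 10 receptors, up to 4 called genes per list and direction, and the 3 nearest genes per receptor among those with at least 20 CPM in a cluster. Classes were named from marker lists. No doublet caller was run, and depth limits low genes most. One gene of the adaptor list is not reported here.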

Additional observations from a re-analysis of the deposited data

Results flagged for a closer look

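In the sum of all cells of a mouse, the SHP099 effect differed with and without SX682 for Erbb2 and Erbb3. These are 2 of 10 receptors, a share near the 17.6% of all genes called for that interaction. For Erbb2 the log2 effect of SHP099 with SX682 minus that without it was 1.83 ± 0.31 (SE), with an adjusted p of 0.00992 (edgeR's interaction test). Erbb2 was at 14.7, 14.1 and 17.2 CPM with vehicle, 5.62, 6.86 and 4.45 CPM with SHP099, 9.90, 6.24 and 7.05 CPM with SX682 and 7.65, 11.3 and 11.8 CPM with the combination. For Erbb3 the difference was 2.03 ± 0.36 (SE), with an adjusted p of 0.0107 (edgeR's interaction test). Erbb3 was at 11.8, 7.47 and 7.05 CPM with SX682 and 7.57, 9.61 and 10.1 CPM with the combination.

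Both calls held in all 12 fits that left out 1 mouse. In tumour cells alone the same interaction was 0.08 for Erbb2 and 0.59 for Erbb3, and neither passed. The tumour cell share moved alongside, at 18.3, 2.42, 6.59 and 7.40% of cells on average with vehicle, SHP099, SX682 and the combination, and its part was not tested.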

How the results depend on the processing

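Over 893 alternatives to 55 results on single receptors, 763 kept direction and side of the threshold, 77 lost a call, 33 gained one and 20 changed sign. In bulk, the 0 receptors called became 2 with DESeq2 and 2 without a filter (0 with 1 library left out), and the 23 genes became 569, 283 and 0 to 16. Summed over cell classes, the 3 receptors called with SHP099 became 5 without a filter, 1 with groups fitted alone and 0 to 4 with 1 mouse left out. With the combination against vehicle 1 became 5 without a filter, 2 with cluster 16, 0 in cluster 23 alone or in tumour cells with few foreign UMIs (where Egfr fell below the filter and was not tested), and 0 to 1 with 1 mouse left out. Against SX682 0 became 1 with DESeq2, 3 without a filter, 1 in cluster 21 and 0 to 1. In all cells the counts with 1 mouse left out were 4 to 7 for SHP099 (5), 0 to 4 for SX682 (1), 1 to 6 for the combination (4), 0 to 2 against SHP099 (0), 0 to 2 against SX682 (1) and 2 to 4 for the interaction (2). DESeq2 gave 2 for SX682, 2 against SHP099 and 2 against SX682, groups fitted alone 0, 2 and 0, and no filter 0 against SX682. In fibroblasts 0 became 2 for SX682 without a filter, and 1 became 0 to 1 for the combination against SX682. The causes were not tested.

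Signs changed in bulk for Axl without SHP099 1, SHP099 2 (0.056) or vehicle 3 (0.064), with a range of -0.23 to 0.10 over single libraries left out. In tumour cells with SHP099 they changed in cluster 21 for Axl (-0.056), Met (-0.17) and Erbb2 (0.11), in cluster 23 for Egfr (0.16) and Erbb2 (0.50), and for Erbb2 without vehicle 3 (0.036) or SHP099 3 (range -0.17 to 0.11). With the combination they changed for Axl without a filter (-0.021), vehicle 3 or combination 2 (-0.024, range -0.11 to 0.074) and in cluster 23 (-0.077), for Erbb2 without vehicle 3 (0.021) or combination 1 (range -0.19 to 0.053), with few foreign UMIs (0.11) and in cluster 23 (0.19), for Erbb3 in cluster 23 (0.25) and for Met with few foreign UMIs (0.019).

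Replicate numbers did not pair the bulk samples (correlations of -0.0318, 0.0305 and 0.027). With the replicate block, the combination against SX682 gave 1 call over classes in place of 0, and SX682 in all cells 0 in place of 1 (Erbb2, adjusted p of 0.0622, edgeR). In all cells it also lost Met with the combination (0.0570) and Egfr against SX682 (0.0742) and gained Axl with SHP099 (0.0277) and Fgfr1 for the combination against SX682. Endothelial cells could not be fitted at 30 cells a mouse.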
